A study of Bos taurus with 6 samples.

Results

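The miR-25, miR-92 and miR-363 family was followed in extracellular vesicles (EVs), membrane-enclosed particles released by cells, from the serum of 6 lactating Holstein cows. The members were the rows named bta-miR-25, bta-miR-92a, bta-miR-92b and bta-miR-363, which are 4 of the 706 miRNAs and 4 of the 359 known Bos taurus miRNAs listed in the deposited count table. The 3 control cows received a Total Mixed Ration, and the 3 tested cows received a ration in which whole cotton seed and soybean hull took the place of part of the alfalfa hay. All 6 cows were females in mid lactation, kept in chambers of constant temperature and humidity, and were bled on day 30 of feeding. EVs were caught on an affinity membrane, which does not separate EV types, and each cow gave 1 small RNA library, so the replicates are cows.

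MiRNAs are short RNAs that bind messenger RNAs mainly through their seed, bases 2 to 8 from the 5′ end, and lower the output of the bound messages. Members of this family come from separate hairpins. Those of miR-92a lie in the miR-17-92 cluster and in its copy, the miR-106a-363 cluster, that of miR-25 lies in the miR-106b-25 cluster, and that of miR-92b stands alone. The family is known for restraining BCL2L11 (BIM), a promoter of cell death, and miR-92a and miR-25 are known as abundant miRNAs of blood, red blood cells included.

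The listed sequences are shown because they carry the seed that defines the family and the few bases by which its members can be told apart. They are written 5′ to 3′ with T for U, as deposited, and capitals mark bases 2 to 8.
bta-miR-92a: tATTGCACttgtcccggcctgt
bta-miR-92b: tATTGCACtcgtcccggcctcc
bta-miR-25: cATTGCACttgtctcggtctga
bta-miR-363: aTTGCACGgtatccatctgcg
bta-miR-32: tATTGCACatgactaagttgcat
The seed ATTGCAC was shared by bta-miR-92a, bta-miR-92b and bta-miR-25, and by bta-miR-32, a relative outside the 4 members. No other known miRNA and 0 of the 347 newly predicted miRNAs had it at bases 2 to 8. In bta-miR-363 the same 7 bases stood at positions 1 to 7, because its listed 21-nt sequence starts 1 base further in, so its bases 2 to 8 read TTGCACG. Searched anywhere and on the listed strand only, ATTGCAC was found in 6 known miRNAs (1.67%), these 5 and bta-miR-154c, where it began at position 5. bta-miR-154c had 43 counts in all libraries together and was named after its values were seen. bta-miR-367, the remaining relative looked for, has no row in the table.

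Outside the seed the members differed to unequal degrees. Counted from the 5′ end of bta-miR-92a, with its base first, bta-miR-92b differed at 3 of 22 positions, T10C, G21C and T22C. bta-miR-25 differed at 4 of 22, T1C, C14T, C18T and T22A. When bta-miR-363 was set against bta-miR-92a on the shared 7 bases, 10 of 21 positions were identical. bta-miR-32 had 12 of 22 positions identical. The closest listed sequence was 3 edits away for bta-miR-92a and for bta-miR-92b, namely the other of the pair, and 4 edits away for bta-miR-25. Reads cut short at the 3′ end lose 2 of the 3 bases that separate bta-miR-92a from bta-miR-92b. How the authors assigned such reads is not given in the sources used here, which makes the smaller count of bta-miR-92b the less certain of the pair.

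In the RefSeq gene list of ARS-UCD2.0, used here for neighbours only since the reads were matched to ARS-UCD1.2, every member matched a gene name. The mature bta-miR-92a can come from either of 2 genes. MIR92A-1 had MIR17, MIR18A, MIR19A, MIR20A and MIR19B within 10 kb. MIR92A-2 had MIR363, MIR19B-2, MIR20B, MIR18B and MIR106A within the same distance. MIR25 had MIR106B and MIR93, and MIR92B had no miRNA gene within 10 kb. Counts of bta-miR-92a from its 2 genes cannot be told apart.

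Between 1277693 and 2176002 miRNA counts lay behind each library, of which 1226928 to 2088249 were on known miRNAs. Levels below are CPM, the counts-per-million value relative to all known miRNA counts of the library. A count stands for a short RNA read whole, so levels of different miRNAs need no scaling by length, although ligation during library preparation favours some sequences. The diets were set against each other by the edgeR quasi-likelihood F test on counts, fitted over the 623 miRNAs with at least 10 counts in all libraries together, 312 of them known, and p-values were adjusted over the 623 by the method of Benjamini and Hochberg. The threshold for a call was an absolute log2 fold change above 1 at an unadjusted p below 0.05. Single values were tested by exact permutation (two-sided), whose smallest p with 3 cows against 3 is 0.1. In bulk EV RNA, fewer EVs carrying a miRNA and fewer copies per EV cannot be told apart. Of 5 red blood cell miRNAs, bta-miR-486, bta-miR-451 and bta-miR-144 were highest in tested cow 1 and bta-miR-16a and bta-miR-16b were not, as detailed with the members they touch.

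bta-miR-92a was the dominant member of the family in every cow and had a lower mean in the tested group, 1.32-fold below that of the control group, bta-miR-92b was a minor member, bta-miR-25 held nearly the same share of known counts in all cows, and bta-miR-363 was rare except in tested cow 1. Past this threshold there were 0 of the 4 members by edgeR, DESeq2 and limma, and by edgeR 3.21% of all miRNAs tested. At an unadjusted p below 0.05 alone there was 1 of the 4 by edgeR and by limma, bta-miR-92a, and 0 by DESeq2. For edgeR this stands against 4.65% of all miRNAs tested in either direction and 1.93% in the direction lower in the tested group. An adjusted p below 0.05 from edgeR was reached by 0 of the 4 and by 0.161% of all miRNAs tested. In CPM of known counts the groups overlapped for each of the 4 members, and they did not overlap for 8.01% of the known miRNAs tested. Overlap depended on the scale for 3 of the 4. bta-miR-92a did not overlap relative to all miRNA counts, where the lowest control cow had 12094 and the highest tested cow 12051 CPM, and 2.56% of the known miRNAs tested were lower in this way. bta-miR-92b did not overlap in CPM scaled by TMM, with 140 in the lowest control cow and 133 in the highest tested cow, against 2.88% of the known miRNAs tested. Relative to clean reads bta-miR-92a, bta-miR-92b and bta-miR-363 did not overlap, the last of them higher in the tested group, and only bta-miR-25 overlapped on all 4 scales. The median log2 fold change of the 4 members was -0.22, beside 0.07 over all 623 miRNAs and -0.01 over the 312 known ones.

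bta-miR-92a, the cluster product best known from the miR-17-92 locus, had 12504, 13070 and 14591 CPM in control cows and 12550, 7793 and 10069 in tested cows. Tested cow 1 lay between control cows 1 and 2, while the other 2 tested cows lay below every control cow. Mean levels were 13388 ± 1080 (SD, n = 3) and 10137 ± 2379 (SD, n = 3), 1.32-fold higher in the control group (exact permutation test, p = 0.2). On the log2 scale edgeR gave a fold change of -0.47 with a standard error of 0.192, a 95% interval of -0.89 to -0.06, an unadjusted p of 0.0287 and an adjusted p of 0.448. Its rank among the known miRNAs was 18, 18 and 14 in control cows and 20, 24 and 20 in tested cows.

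The direction of bta-miR-92a was the same in all 17 other settings and left-out cows that were run, but its unadjusted p was not below 0.05 in each of them. DESeq2 gave a log2 fold change of -0.56 with an unadjusted p of 0.0611. Without control cow 2, control cow 3, tested cow 2 or tested cow 3 the unadjusted p of edgeR was 0.0824, 0.111, 0.0956 and 0.0890. Without tested cow 1 the log2 fold change was -0.67 (edgeR, unadjusted p of 0.00393, adjusted p = 0.333). With bta-miR-92b added to bta-miR-92a it was -0.48 (edgeR, unadjusted p of 0.0264).

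Scaled to clean reads, as in the per-million values the authors deposited, bta-miR-92a had 1347, 2053 and 2629 RPM in control cows and 1067, 1215 and 869 RPM in tested cows. On this scale the groups did not overlap (exact permutation test, p = 0.1, the smallest possible). Among the known miRNAs tested, 4.17% were lower on this scale in every tested cow than in every control cow. The scale also carries the share of clean reads that were known miRNAs, which was 10.8%, 15.7% and 18.0% in control cows and 8.50%, 15.6% and 8.63% in tested cows, and its part in the difference was not tested.

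bta-miR-92b, the relative from a hairpin of its own, had 180, 144 and 188 CPM in control cows and 90.5, 73.4 and 151 in tested cows. Tested cow 3 lay within the control range, and the other 2 tested cows lay below it. These levels rest on 276, 290 and 375 counts in control cows and on 111, 138 and 316 in tested cows. The exact 95% counting interval ran from 128 to 162 CPM in control cow 2, the lowest of its group, and from 74.4 to 109 in tested cow 1, and it covers counting error only. Mean values were 171 ± 23.3 (SD, n = 3) and 105 ± 40.9 (SD, n = 3), 1.63-fold higher in the control group (exact permutation test, p = 0.2). With edgeR the log2 fold change was -0.79 with a standard error of 0.571, a 95% interval of -2.02 to 0.44 and an unadjusted p of 0.190 (adjusted p = 0.623). DESeq2 gave -0.89 with an unadjusted p of 0.0512. In RPM of clean reads the groups did not overlap for bta-miR-92b either, with 19.3, 22.7 and 33.9 in control cows and 7.69, 11.4 and 13.1 in tested cows (exact permutation test, p = 0.1), and 4.17% of the known miRNAs tested were lower in this way.

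bta-miR-25, the seed-sharing member of the miR-106b-25 cluster, had 1252, 1201 and 1182 CPM in control cows and 1412, 1207 and 1253 in tested cows. The groups overlapped, and the highest value was that of tested cow 1. Mean values were 1212 ± 36.2 (SD, n = 3) and 1291 ± 108 (SD, n = 3), so that the difference of 78.9 CPM is smaller than the spread between the tested cows (exact permutation test, p = 0.2). This difference was 18.1 CPM without tested cow 1 and 121 CPM without tested cow 2. The log2 fold change of edgeR was 0.03 with a 95% interval of -0.56 to 0.62 (unadjusted p of 0.907, adjusted p = 0.987), and it was -0.04 with RLE factors, with DESeq2 and without tested cow 1. A level more than 1.54-fold higher or more than 1.47-fold lower in the tested group thus lies outside the interval. Its rank ran from 43 to 46 in the 6 cows. Over the 6 cows, the highest level in CPM of known counts was 1.19 times the lowest for bta-miR-25 and 1.87 times for bta-miR-92a. Relative to clean reads bta-miR-25 was less even, with 135, 189 and 213 RPM in control cows and 120, 188 and 108 in tested cows. The highest was then 1.97 times the lowest, and the difference of tested minus control had the opposite sign, -40.0 RPM (exact permutation test, p = 0.2).

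bta-miR-363, whose hairpin neighbours the second bta-miR-92a hairpin, was counted 12, 8 and 8 times in control cows and 59, 12 and 21 times in tested cows. The level in tested cow 1 was 48.1 CPM (exact 95% counting interval 36.6 to 62.0), and in the other 5 cows it ran from 3.98 to 10.1. Tested cow 1 alone held 64.1% of the bta-miR-363 counts of the tested group. The group means were 5.27 ± 2.20 (SD, n = 3) and 21.5 ± 23.1 (SD, n = 3) CPM (exact permutation test, p = 0.2), so the spread between tested cows was as large as their mean. edgeR gave a log2 fold change of 1.97 with a standard error of 1.75, a 95% interval of -1.81 to 5.75 and an unadjusted p of 0.280 (adjusted p = 0.700). Without tested cow 1 it was 0.57 (edgeR, unadjusted p of 0.837). In the other 2 tested cows the mean level was 8.22 CPM, against 5.27 in control cows, and the counting intervals of all 5 cows overlapped. In RPM of clean reads bta-miR-363 had 0.841, 0.626 and 0.724 in control cows and 4.09, 0.996 and 0.868 in tested cows. On that scale the tested cows were all higher, by exact permutation at the smallest possible p = 0.1, and 1.6% of the known miRNAs tested were higher in this way. The lowest tested cow, at 0.868 RPM on 21 counts, lay next to the highest control cow, at 0.841 RPM on 12 counts.

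The order of levels was the same in all 6 cows, bta-miR-92a above bta-miR-25, bta-miR-25 above bta-miR-92b and bta-miR-92b above bta-miR-363. With bta-miR-32 included, it stood between bta-miR-25 and bta-miR-92b in every cow. Neighbours in this order did not overlap in range, from 7793 to 14591 CPM in bta-miR-92a and from 1182 to 1412 in bta-miR-25, then 806 to 990 for bta-miR-32, 73.4 to 188 for bta-miR-92b and 3.98 to 48.1 for bta-miR-363. The 4 members together held 1.39%, 1.44% and 1.60% of the known miRNA counts in control cows and 1.41%, 0.908% and 1.15% in tested cows. Of the family's counts, bta-miR-92a made up 90.6% ± 0.860 (SD, n = 3) among control cows and 87.5% ± 1.59 (SD, n = 3) among tested cows. The share of bta-miR-25 within the family was 8.24% ± 0.792 (SD, n = 3) and 11.4% ± 1.69 (SD, n = 3).

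**Figure D1:**
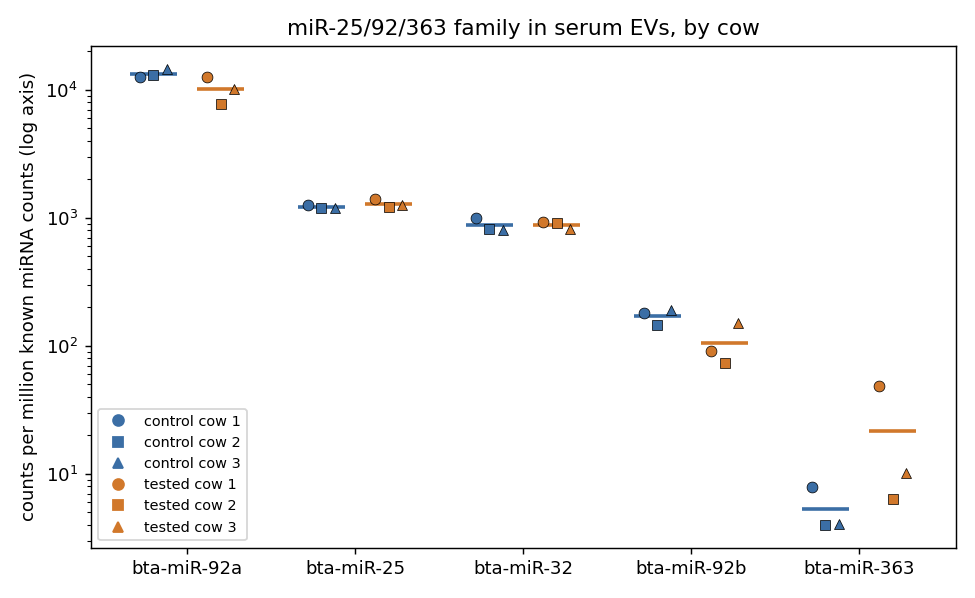
Levels of the 4 family members and of bta-miR-32, in CPM of known miRNA counts on a log axis, with a point for each of the 3 control and 3 tested cows and a bar at each group mean. The order of the members was the same in every cow, the 3 tested cows spread from 7793 to 12550 for bta-miR-92a, and tested cow 1 stood at 48.1 for bta-miR-363.

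The ratio of bta-miR-92a to bta-miR-25 compares seed-sharing members within a library and does not depend on any scaling. It was 9.99, 10.9 and 12.3 in control cows and 8.89, 6.46 and 8.03 in tested cows. Every tested cow lay below every control cow, tested cow 1 included. Mean values were 11.1 ± 1.19 (SD, n = 3) and 7.79 ± 1.23 (SD, n = 3), and the mean log2 ratio, tested minus control, differed by -0.51 (exact permutation test, p = 0.1, the smallest possible, and 0.15 adjusted over 3 ratios). Of the ratios of bta-miR-92a to each of the other 172 known miRNAs with a count in every library, 21.5% were lower in every tested cow than in every control cow and 0 were higher in every tested cow. For bta-miR-25 the same shares were 4.65% and 5.23%. Over all pairs of these miRNAs, 8.42% did not overlap between the groups in either direction. The ratios of a member to the other miRNAs all share its counts, so they are not separate observations.

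The ratio of bta-miR-92a to bta-miR-92b was 69.6, 90.5 and 77.4 in control cows and 139, 106 and 66.5 in tested cows. Tested cow 3 lay below and the other 2 tested cows above the control range (exact permutation test on log2 ratios, p = 0.4). Its direction was thus mixed between the tested cows. The ratio of bta-miR-92a to bta-miR-363 was 1602, 3282 and 3630 in control cows and 261, 1221 and 1001 in tested cows. The groups did not overlap (exact permutation test, p = 0.1, and 0.15 adjusted over 3 ratios), but the denominators are as few as 8 counts.

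**Figure D2:**
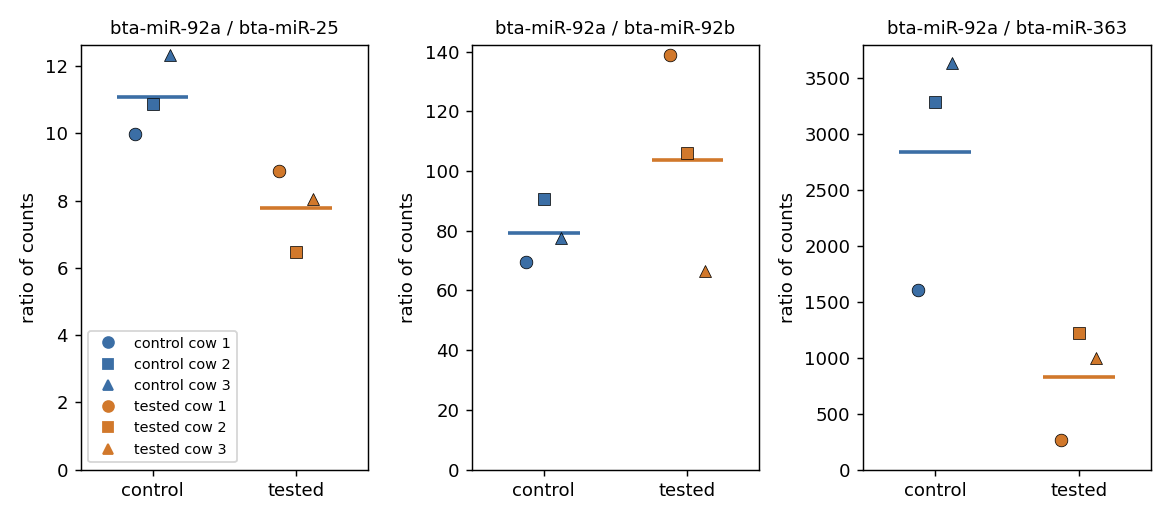
Ratio of bta-miR-92a counts to those of bta-miR-25, bta-miR-92b and bta-miR-363 within each library (linear axes from 0), with a point for each cow and a bar at each group mean. The ratio to bta-miR-25 was 9.99 to 12.3 in control cows and 6.46 to 8.89 in tested cows, and the ratio to bta-miR-92b overlapped between the groups.

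bta-miR-32, which has the family seed on a different 3′ part, had 990, 821 and 806 CPM in control cows and 922, 913 and 816 in tested cows. The groups overlapped fully, with a log2 fold change of -0.03 (95% interval -0.69 to 0.62, edgeR, adjusted p = 0.987). The ratio of bta-miR-25 to bta-miR-32 stayed between 1.26 and 1.54 in the 6 cows. Together the 4 miRNAs with ATTGCAC at bases 2 to 8 held 1.49%, 1.52% and 1.68% of the known counts in control cows. In tested cow 1 their share lay within this range, and it was 0.999% and 1.23% in tested cows 2 and 3.

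The cluster partners were far less abundant than bta-miR-92a. Of 11 partners looked for, 10 had a row and 6 had enough counts to be tested. At an unadjusted p below 0.05 there were 0 of these 6 by edgeR, by DESeq2 and by limma, against 4.65% of all miRNAs tested by edgeR, with edgeR log2 fold changes from -0.54 to 6.64 and a median of 0.23. The highest value belonged to bta-miR-18b, whose 37 counts all came from tested cow 2. Scaled to known counts, its level in the tested group was at least 13.1-fold higher than a floor of 3 counts over the control group, a bound that rests on that cow alone (edgeR, unadjusted p of 0.0819, adjusted p = 0.448), and without tested cow 2 it had no count at all.

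In the miR-17-92 cluster, bta-miR-17-5p and bta-miR-20a, which share another seed, had 17.9 to 110 and 4.89 to 131 CPM over the 6 cows. bta-miR-19b, which has a gene beside each bta-miR-92a gene, had 4.55 to 41.7, and its counts cannot be divided between them. The ratio of bta-miR-92a to bta-miR-17-5p ran from 70.8 to 700 and that to bta-miR-20a from 77.1 to 2566, both highest in tested cow 1, where bta-miR-17-5p had 22 counts and bta-miR-20a had 6. bta-miR-17-3p, bta-miR-18a, bta-miR-19a and bta-miR-106a had between 1 and 5 counts in all libraries together. bta-miR-20b has no row in the table.

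In the miR-106b-25 cluster, bta-miR-106b had 84.6, 90.1 and 93.5 CPM in control cows and 105, 154 and 82.8 in tested cows. bta-miR-93 had 46.2, 89.6 and 93.5 and then 78.2, 89.9 and 150. Both overlapped between the groups, with log2 fold changes of 0.31 (95% interval -1.08 to 1.70) and 0.37 (95% interval -1.12 to 1.87) by edgeR. The ratio of bta-miR-25 to bta-miR-106b ran from 7.82 to 15.1 and that to bta-miR-93 from 8.36 to 27.1, so bta-miR-25 was the most abundant product of its cluster in every cow.

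**Figure D3:**
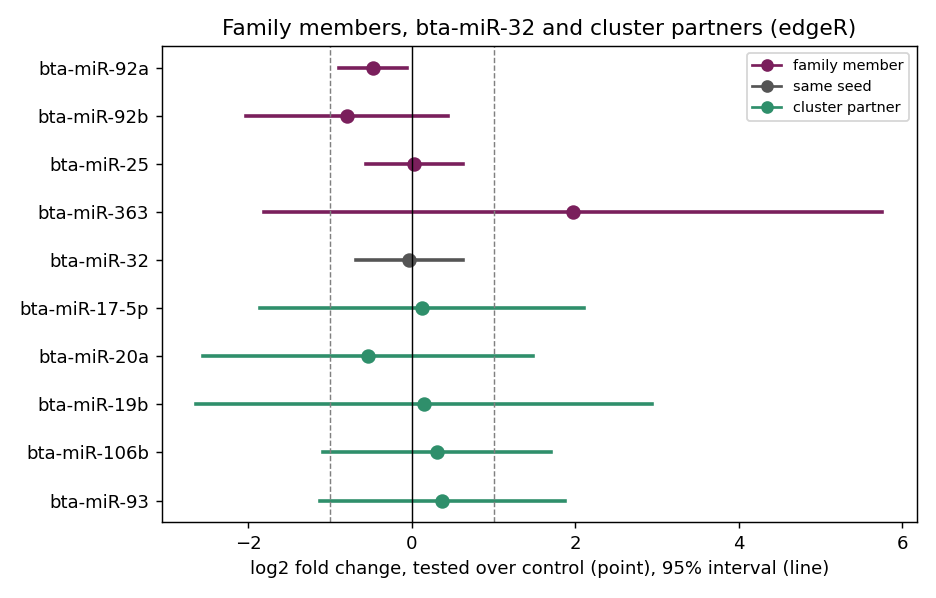
Log2 fold change of tested over control from edgeR (points) with 95% intervals (lines) for the 4 family members, bta-miR-32 and 5 of the 6 cluster partners tested; bta-miR-18b, with counts in 1 cow, is left out. Dashed lines mark an absolute log2 fold change of 1, and of the intervals shown only that of bta-miR-92a (-0.89 to -0.06) lies on one side of 0.

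Since miR-92a and miR-25 are also red blood cell miRNAs, the levels of 5 red blood cell markers (bta-miR-451, bta-miR-144, bta-miR-486, bta-miR-16a and bta-miR-16b) are given beside them. Their sum was 28653, 16434 and 13625 CPM in control cows and 59719, 11028 and 8760 in tested cows. bta-miR-451, the defining red blood cell miRNA, ran from 1688 to 7169 CPM outside tested cow 1 and was 17341 in that cow. bta-miR-486 made up most of the sum there, with 41735 CPM against 6909 to 21019 in the other cows, and bta-miR-144 had 532 against 23.5 to 247. The other 2 markers did not follow, since bta-miR-16a was lowest in tested cow 1, with 39.1 against 62.2 to 131 CPM, and bta-miR-16b, with 71.7, lay within the range of the other cows. Tested cow 1 was thus the highest cow for the red blood cell sum, for bta-miR-25 and for bta-miR-363, and the highest tested cow for bta-miR-92a. The lowest 2 cows for the red blood cell sum, tested cows 2 and 3, were also the lowest 2 for bta-miR-92a. In the control group the order was the opposite, since control cow 3 had the lowest red blood cell sum and the highest bta-miR-92a. The part of red blood cell RNA in the difference of bta-miR-92a was not tested. None of the 5 markers had an unadjusted p below 0.05 by edgeR (log2 fold changes from -0.27 to 0.59).

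**Figure D4:**
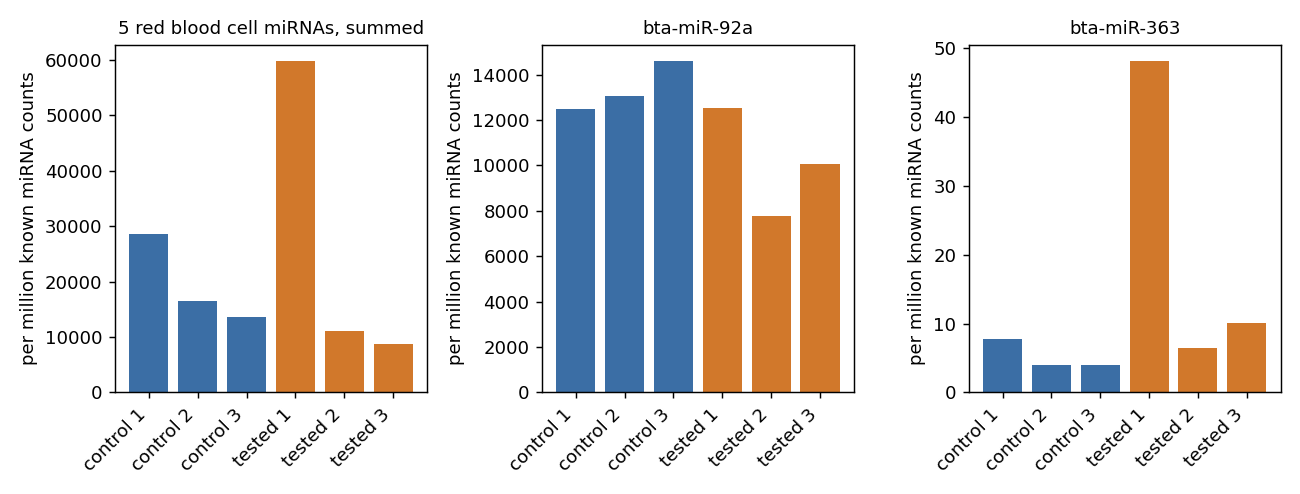
Summed level of 5 red blood cell miRNAs and levels of bta-miR-92a and bta-miR-363 in each library (blue, control cows; orange, tested cows), in CPM of known miRNA counts, with bars from 0. Tested cow 1 had 59719 CPM of the red blood cell miRNAs and 48.1 of bta-miR-363, while its bta-miR-92a level of 12550 was within 0.367% of that of control cow 1.

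Markers of other sources were given as summed levels in CPM. The 5 platelet and vessel markers summed to 129, 79.6 and 19.1 in control cows and to 334, 86.2 and 271 in tested cows. Of these, 1 passed the threshold, bta-miR-199a-3p (log2 fold change of 2.66, edgeR, adjusted p = 0.448), against 3.21% of all miRNAs tested by edgeR. It had 11.1, 22.4 and 6.03 CPM in control cows and 183, 19.2 and 58.4 in tested cows (exact permutation test, p = 0.2). Tested cow 2 thus lay within the control range, and tested cow 1 was the highest. The edgeR log2 fold change was above 0 for all 5 markers, from 0.61 to 2.66, beside 333 of the 623 miRNAs tested and 154 of the 312 known ones. In CPM of known counts the groups overlapped for each of the 5. Both arms of bta-miR-126 and of bta-miR-199a are among these markers, so the 5 are not independent. The 5 white blood cell markers with a row summed to 214 to 471 in control cows and to 207 to 443 in tested cows, and the 3 liver markers to 1068 to 1590 and 1130 to 2024. bta-miR-223 is counted in both the platelet and vessel list and the white blood cell list. The 6 epithelial markers with a row summed to 74400 to 88914 and 87883 to 93931. Of these 6, the edgeR log2 fold change was above 0 for 4 and below 0 for 2. In CPM of known counts bta-miR-141 and bta-miR-200a were higher in every tested cow than in every control cow. Beside them, 8.01% of the known miRNAs tested had groups that did not overlap in either direction. In CPM scaled by TMM bta-miR-200a overlapped, with 27036 in control cow 2 and 26431 in tested cow 3. In RPM of clean reads both overlapped, with 2254 and 4364 in control cow 2 and 1340 and 2428 in tested cow 1. bta-miR-141, 1 of the 6, had an unadjusted p below 0.05 without passing the threshold (log2 fold change of 0.37, edgeR, unadjusted p of 0.0346, adjusted p = 0.448), against 4.65% of all miRNAs tested by edgeR. bta-miR-142-3p and bta-miR-203 have no row, and no marker with a row was at 0 in all cows. The part of these sources in the levels of the family was not tested.

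Likeness of pattern was measured as the Pearson correlation of log2 levels over the 6 libraries among 133 known miRNAs with at least 10 counts in every library, as a description. Libraries share their total, so levels of different miRNAs are not independent. Those named below were picked as the highest of many over only 6 libraries, so a high r is in part a product of the picking. The miRNAs most like bta-miR-92a were bta-miR-2285t (r = 0.883, Spearman 0.714), bta-miR-484 (r = 0.766, Spearman 0.486) and bta-miR-375 (r = 0.764, Spearman 0.257). Those most like bta-miR-92b were bta-let-7g (r = 0.898, Spearman 0.943), bta-let-7i (r = 0.854, Spearman 0.771) and bta-miR-423-3p (r = 0.818, Spearman 0.771). Those most like bta-miR-25 were bta-miR-340 (r = 0.927, Spearman 0.886), bta-miR-192 (r = 0.905, Spearman 0.714) and bta-miR-328 (r = 0.902, Spearman 0.829). Within the family the correlation was 0.689 between bta-miR-92a and bta-miR-92b, 0.079 between bta-miR-92a and bta-miR-25 and -0.389 between bta-miR-92b and bta-miR-25. None of these 3 members was thus among the 3 miRNAs most like another of them, and bta-miR-363, with 8 counts in a pair of control cows, was not compared.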

How the data were processed

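Small RNA libraries of serum EVs were made with the TruSeq Small RNA kit, 1 per cow. The submitters' processing notes name cutadapt 1.14, Bowtie and assembly ARS-UCD1.2, and the methods name miRBase and miRDeep2 for known and newly predicted miRNAs. The authors deposited counts, whole numbers without normalization, and the counting tool is not given in the sources used here. The values the authors deposited as TPM are RPM, each count divided by the clean reads of its library on a per-million scale. The same table and a list of called miRNAs hold the authors' own comparison of the groups (base mean, fold change, test and p-values), which was not used.

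The 623 miRNAs with a summed count of at least 10 were fitted with edgeR 4.0.16 in R 4.3.3 (TMM factors, glmQLFit, glmQLFTest). Standard errors are the fold change divided by the square root of F. limma 3.58.1 on log2(CPM + 1) and DESeq2 1.42.0 were alternatives, all tested on simulated data. Depth was 1277693 to 2176002 counts per library. Counting intervals are exact binomial (Clopper-Pearson, 95%) and leave out the spread between cows and any PCR duplication. Levels, ratios and plots used Python 3.11.15, SciPy 1.17.1 and Matplotlib 3.10.9.

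The members, cluster partners, marker lists and tests were chosen with earlier results of these data known. Named miRNAs are the 4 members, those sharing a seed, the cluster partners, the marker lists and, for each member with at least 10 counts in every library, the 3 known miRNAs most like it.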

Additional observations from a re-analysis of the deposited data

How the results depend on the processing

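Each fit was repeated with DESeq2, limma, filterByExpr, no filter, RLE factors, no factors, robust estimation, only the known miRNAs, a prior count of 1, the replicate number as a block, and each cow left out in turn. The merging of bta-miR-92a with bta-miR-92b was added after the data were seen. Of 170 values, 159 kept their direction and their side of the threshold or moved by less than the spread between cows. The log2 fold change of bta-miR-25, 0.03, changed sign to -0.0412 with DESeq2 and -0.0409 with RLE factors, and ran from -0.0421 to 0.122 with a cow left out. The number of members with an unadjusted p below 0.05, 1 with edgeR, was 0 with DESeq2 and 0 to 1 with a cow left out. Relative to clean reads, the difference of tested minus control was -40.0 RPM for bta-miR-25, -959 RPM for bta-miR-92a, -14.6 RPM for bta-miR-92b and 1.25 RPM for bta-miR-363, on a scale that is smaller by construction, and for bta-miR-25 it was opposite in sign to the 78.9 CPM of known counts; the cause was not tested. The groups overlapped for all members in CPM of known counts, but not for bta-miR-92a relative to all miRNA counts, for bta-miR-92b scaled by TMM, or for bta-miR-92a, bta-miR-92b and bta-miR-363 relative to clean reads (exact permutation test, p = 0.1 each).

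With a cow left out, the log2 fold change ran from -0.67 to -0.35 for bta-miR-92a, from -1.06 to -0.63 for bta-miR-92b and from 0.57 to 2.39 for bta-miR-363. The adjusted p of bta-miR-92a ran from 0.397 to 0.903 over the settings with all cows. Same-numbered cows of the groups had correlations of -0.058, -0.048 and -0.019 across miRNAs, within the range of differently numbered cows, -0.061 to 0.106. These values show no pairing by number, but they cannot show that there is none. With the replicate block, bta-miR-92a had a log2 fold change of -0.49 with an unadjusted p of 0.0118 and an adjusted p = 0.903 from edgeR, and the count of members past the threshold was 0. Depth limits bta-miR-363 most, with 8 to 59 counts per library.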
